A study of Mus musculus with 4 samples.

Results

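The genes of cholesterol synthesis, uptake and control were described as a set of 32, chosen by name: 7 regulators of the sterol-sensing transcription factors SREBP, 8 genes of the mevalonate steps, 11 of the sterol steps and 6 of uptake or trafficking. All 32 have a row among the 38697 genes of the authors' comparison, and all 32 are among the 19193 that carry an adjusted p. The comparison is between 2 KO and 2 WT samples of lung group 2 innate lymphoid cells (ILC2s), tissue lymphocytes that make type 2 cytokines, sorted from C57BL/6 mice after bleomycin, a drug that injures the lung. KO mice were R5/+Nrp1f/f and WT mice R5/+. R5 is an Il5 allele that expresses a reporter and Cre recombinase, so both genotypes carry Cre in cells that use Il5, and only the KO mice carry floxed Nrp1, the gene of the co-receptor neuropilin-1. Each sample pooled 3 to 4 mice, ages are not in the labels, and no source used here says whether pools were made on separate days, so p-values measure only the spread between these pools.

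Cells obtain cholesterol by building it from acetyl-CoA or by taking up lipoproteins. SREBP-2, the product of Srebf2, is held in the endoplasmic reticulum by SCAP and the INSIG proteins while sterols are plentiful. When sterols fall, SCAP carries it to the Golgi, the proteases encoded by Mbtps1 and Mbtps2 cut it free, and it switches on most genes of the synthesis pathway. Proliferating and activated lymphocytes are known to draw on this pathway for membrane and for the lipid anchors of signalling proteins.

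The values are the authors' own. baseMean is the mean normalized count of a gene over the libraries, and the log2 fold change comes with a standard error (SE), a p-value and an adjusted p. The table does not name its numerator. Its title puts WT first, so signs were turned here and a positive log2 value means higher in KO. Single genes are given as the log2 value ± SE, with the adjusted p in brackets. With the opposite reading every direction below would turn. Nrp1 itself (chromosome 8), the check of the labels, stood at -1.18 ± 0.21 (SE, adjusted p = 1.27e-04) (log2, KO over WT) per the authors' deposited table. No value of a single library could be tied to a sample, so levels are given over all libraries, and KO and WT means are the ones that baseMean and the fold change imply with equal weight of the genotypes.

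One of the 32 genes changed past the threshold, an adjusted p under 0.05. Srebf2 was lower in KO, and none of the 32 was higher. Across all tested genes, 0.099% were lower, 0.453% higher and 0.552% changed in either direction by the same rule. At an unadjusted p under 0.05, 4 members were lower and 0 higher, namely Srebf2, Srebf1, Mbtps1 and Sc5d, against 3.95% of all tested genes lower, 9.62% higher and 13.6% in either direction. Among tested genes with a baseMean of 100 to 4000, the range that holds 30 of the 32, the shares at an unadjusted p were 6.66% lower and 1.01% higher. Of the 32 members 25 had a negative log2 value, and the median was -0.28. Over all tested genes 46.0% were negative with a median of 0.08, and over those with a baseMean of 100 to 4000 the share was 75.2% and the median -0.18, so a negative sign is common at the members' abundance.

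**Figure D1:**
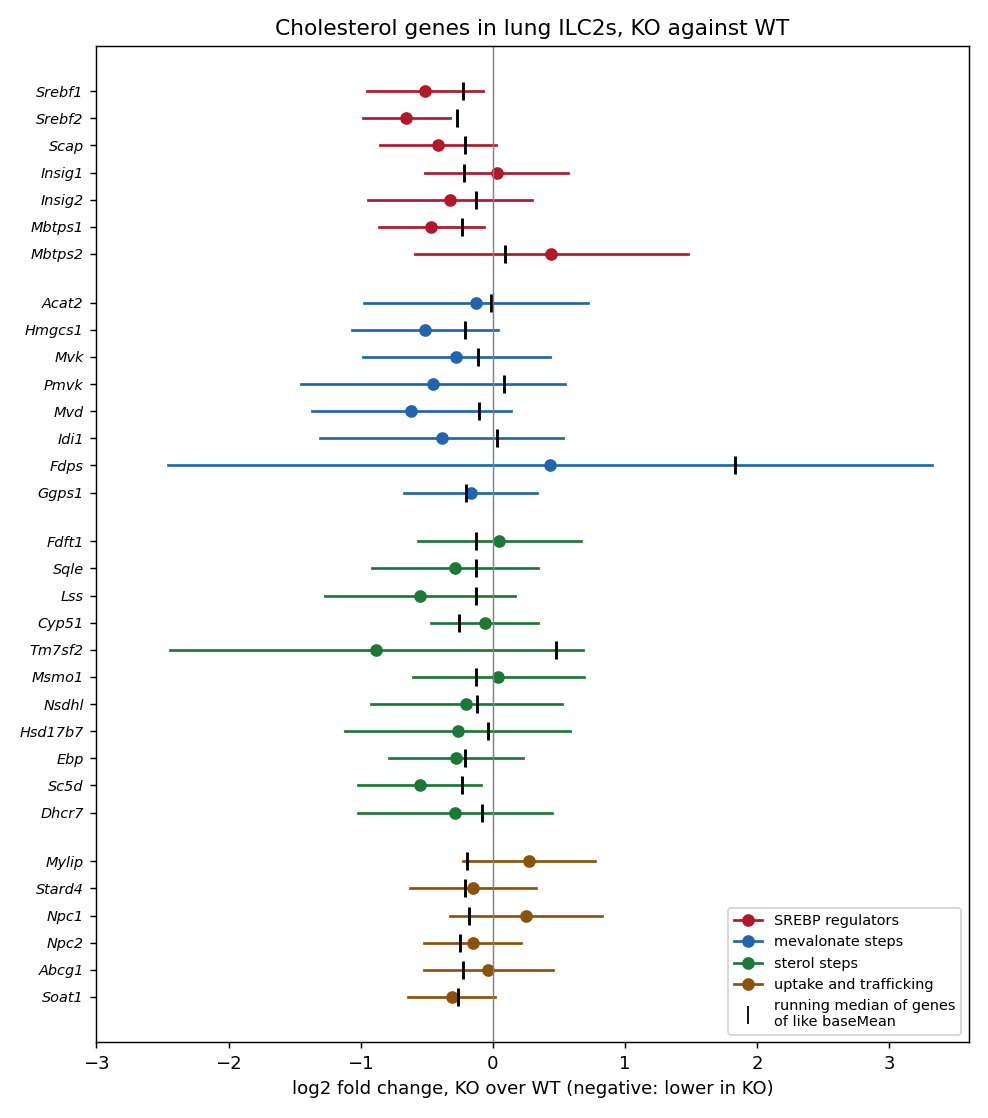
Log2 fold change of each of the 32 genes (points; x axis, KO over WT) with its 95% interval (lines), grouped by role, from the authors' values with the sign turned. Black ticks give the running median of genes of like baseMean. The intervals of Srebf1, Srebf2, Mbtps1 and Sc5d lie below 0, and that of Srebf2 also lies below its tick.

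The regulators held the only call. Srebf2 (ENSMUSG00000022463, chromosome 15, 82147181 to 82205379, plus strand, mm10) encodes SREBP-2 and had an implied mean of 2441 normalized counts in KO and 3847 in WT, so KO stood at 63.5% of WT (95% interval 50.5 to 79.8). Per the authors' deposited table it fell by 0.66 ± 0.17 (SE) in log2 units, and the adjusted p of their two-sided test was 0.0345. By p it was the 54th of 19193 genes and the 10th of the 19 that were lower. The call did not hold when fold changes were set against abundant genes (log2 -0.40, adjusted p = 0.218) or against the running median of genes of like baseMean (-0.39, 0.877), or with no filter on low genes (0.0694). The direction held on both rescaled values, while with no filter the log2 value is the same by construction.

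The 250 bases before the Srebf2 start are shown because this is the gene that changed, and those of Insig1 because it is a regulator with a log2 value near 0. Sequences are RefSeq's on GRCm38.p6, 5′ to 3′ on the gene's strand, and capitals mark CCAAT boxes on either strand (CCAAT or ATTGG), which the factor NF-Y binds and which often accompany SREBP sites.
Srebf2, chr15:82147019-82147268, plus strand: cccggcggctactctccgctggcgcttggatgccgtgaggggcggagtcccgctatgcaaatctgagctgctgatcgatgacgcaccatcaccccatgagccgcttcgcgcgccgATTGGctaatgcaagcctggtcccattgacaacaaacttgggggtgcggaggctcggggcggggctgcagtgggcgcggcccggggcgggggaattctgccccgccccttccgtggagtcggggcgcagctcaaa
Insig1, chr5:28071162-28071411, plus strand: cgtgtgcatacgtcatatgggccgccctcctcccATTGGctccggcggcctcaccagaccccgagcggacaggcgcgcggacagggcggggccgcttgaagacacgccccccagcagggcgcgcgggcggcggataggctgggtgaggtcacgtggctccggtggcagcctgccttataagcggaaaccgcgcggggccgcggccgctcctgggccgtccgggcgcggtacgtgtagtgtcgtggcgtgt
Each of these windows holds 1 CCAAT box, and there are 4 Sp1 boxes (GGGCGG) in that of Srebf2 and 3 in that of Insig1. GENCODE M21 places the outermost start of both genes inside the window, upstream of the RefSeq start.

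Srebf1, whose SREBP-1 products favour fatty acid genes, had implied means of 820 in KO and 1172 in WT. Its log2 value was -0.51 ± 0.22 (adjusted p = 0.261) per the authors' deposited table, and KO stood at 70.0% of WT (95% interval 51.6 to 94.99). Mbtps1, the Golgi protease that makes the initial cut in SREBP, had implied means of 1056 in KO and 1458 in WT, with a log2 value of -0.47 ± 0.20 (adjusted p = 0.258) per the authors' deposited table. Scap, the sterol-sensing escort, followed at -0.42 ± 0.22 (0.403), at implied means of 655 in KO and 875 in WT, per the authors' deposited table. These 3 genes lie on the same side as Srebf2 and none passed the adjusted test.

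The difference between the INSIG paralogs was not tested, and their 95% intervals overlap. Insig1, itself a target of SREBP and a retention factor for SCAP, had implied means of 637 in KO and 624 in WT and a log2 value of 0.03 ± 0.28 (adjusted p = 0.981) per the authors' deposited table. Its 95% interval ran from -0.51 to 0.57 and leaves out a fall as large as the one fitted for Srebf2. It overlaps the 95% interval of Srebf2, -0.99 to -0.33, and the difference between Insig1 and Srebf2 was not tested. Insig2, the paralog that depends less on SREBP, stood at -0.32 ± 0.32 (0.699) per the authors' deposited table, with implied means of 262 in KO and 328 in WT. Mbtps2, the protease of the next cut, was the scarcest regulator per length of transcript, at a baseMean of 106, and had a log2 value of 0.44 ± 0.53 (0.762) per the authors' deposited table. Of the 7 regulators 5 were negative with a median of -0.42, and 5 were also negative after either rescaling, with medians of -0.17 against abundant genes and -0.20 against the running median.

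A microRNA lies inside the gene that changed. Mir33 is encoded within Srebf2 on the same strand and is known to repress sterol export transporters. Its mature forms on GRCm38.p6 are printed with the seed, bases 2 to 8, in capitals.
mmu-miR-33-5p, chr15:82198127-82198147, plus strand: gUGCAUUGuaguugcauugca
mmu-miR-33-3p, chr15:82198167-82198188, plus strand: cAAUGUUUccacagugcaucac
The Mir33 row had a baseMean of 1.90 and no adjusted p per the authors' deposited table, and these libraries, made from full-length cDNA, do not measure mature microRNAs.

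In the mevalonate steps, which turn acetyl-CoA into the isoprenoids farnesyl and geranylgeranyl diphosphate, 7 of 8 genes were negative and none passed the adjusted or the unadjusted test in either direction. Hmgcs1, which makes HMG-CoA, had implied means of 472 in KO and 676 in WT, a log2 value of -0.52 ± 0.28 and an adjusted p of 0.412 per the authors' deposited table. Mvd, the decarboxylase that closes the mevalonate arm, had the lowest log2 value of the 8 at -0.62 ± 0.38 (adjusted p = 0.485) per the authors' deposited table, with implied means of 187 in KO and 287 in WT. For both genes the 95% interval reached past 0, to 0.04 for Hmgcs1 and 0.13 for Mvd. The kinases Mvk and Pmvk stood at -0.28 ± 0.36 (0.790) and -0.45 ± 0.51 (0.747), and the isomerase Idi1 at -0.39 ± 0.47 (0.768), per the authors' deposited table. Acat2, the cytosolic thiolase of the opening reaction, and Ggps1, which makes geranylgeranyl diphosphate, lay closest to 0 among the negative genes, at -0.13 ± 0.43 (0.933) and -0.17 ± 0.26 (0.824) per the authors' deposited table. The median of the 8 was -0.33, and it was -0.36 against the running median and -0.08 against abundant genes.

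Fdps, the farnesyl diphosphate synthase, was the exception in sign and in level. Its log2 value was 0.43 ± 1.47 (adjusted p = 0.934) at a baseMean of 10.9 per the authors' deposited table, so the 95% interval spans KO levels of 18.2% to 1000% of WT and gives no direction. Of its distinct 50-base stretches in GENCODE M21 transcripts, 26.2% also occur in transcripts of 8 other genes, among them the pseudogene Gm3571 with a baseMean of 12.0 per the authors' deposited table. How reads that match several genes were counted is not given in the sources used here, and the part of such reads in the low Fdps level was not tested. High shares were also found for Acat2 (39.1%, mostly with Acat3), Mbtps2 (28.9%), Fdft1 (26.5%) and Idi1 (25.3%), so their values carry the same uncertainty. For the remaining 27 members the share was at most 11.6%.

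The windows before Hmgcs1, Mvk and Mvd are shown as the mevalonate genes with the sterol element, the most CCAAT boxes and the lowest log2 value, with the same capitals.
Hmgcs1, chr13:119690101-119690350, plus strand: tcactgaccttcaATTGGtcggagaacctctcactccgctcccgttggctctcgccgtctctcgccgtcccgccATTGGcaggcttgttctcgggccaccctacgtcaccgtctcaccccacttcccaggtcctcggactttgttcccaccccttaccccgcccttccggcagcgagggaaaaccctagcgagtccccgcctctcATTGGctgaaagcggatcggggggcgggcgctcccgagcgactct
Mvk, chr5:114444019-114444268, plus strand: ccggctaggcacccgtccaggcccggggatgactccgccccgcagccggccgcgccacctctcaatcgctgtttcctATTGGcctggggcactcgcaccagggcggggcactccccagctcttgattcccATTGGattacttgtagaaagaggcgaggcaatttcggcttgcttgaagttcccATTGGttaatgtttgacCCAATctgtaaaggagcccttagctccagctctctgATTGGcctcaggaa
Mvd, chr8:122443423-122443672, minus strand: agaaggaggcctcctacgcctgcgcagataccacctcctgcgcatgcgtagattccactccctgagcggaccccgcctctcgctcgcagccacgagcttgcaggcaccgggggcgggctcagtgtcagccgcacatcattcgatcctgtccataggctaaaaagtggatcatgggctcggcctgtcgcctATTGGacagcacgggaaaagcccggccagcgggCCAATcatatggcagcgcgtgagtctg
There are 3 CCAAT boxes before Hmgcs1, 5 before Mvk and 2 before Mvd. The Hmgcs1 window also has the sterol regulatory element TCACCCCAC at bases -137 to -129 from the start, in lower case above.

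The sterol steps carry farnesyl diphosphate through squalene and lanosterol to cholesterol. Of these 11 genes 9 were negative with a median of -0.28, none passed the adjusted test, and 1, Sc5d, was lower at an unadjusted p under 0.05. Sc5d, the lathosterol desaturase near the end of the route, had implied means of 976 in KO and 1434 in WT, at 68.1% of WT (95% interval 49.3 to 94.1), with a log2 value of -0.55 ± 0.24 (adjusted p = 0.251) per the authors' deposited table. Lss, which closes the rings to lanosterol, had nearly the same log2 value at -0.55 ± 0.37 (0.528) per the authors' deposited table, with implied means of 233 in KO and 342 in WT. Tm7sf2, a sterol C14 reductase, had the lowest value at -0.88 ± 0.80 (0.670) per the authors' deposited table, at a baseMean of only 41.9 and in a position overlapping Vps51 on the same strand.

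The window before Sc5d is shown because it is the one synthesis gene whose 95% interval lies below 0.
Sc5d, chr9:42264301-42264550, minus strand: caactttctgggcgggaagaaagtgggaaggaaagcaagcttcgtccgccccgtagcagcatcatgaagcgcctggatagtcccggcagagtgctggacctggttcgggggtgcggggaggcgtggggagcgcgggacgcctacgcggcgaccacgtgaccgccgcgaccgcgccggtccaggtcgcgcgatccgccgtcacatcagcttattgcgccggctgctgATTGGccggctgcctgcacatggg
It holds 1 CCAAT box, 2 Sp1 boxes and 1 E-box (CACGTG).

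Several sterol enzymes lay at or near no difference. Cyp51, the lanosterol demethylase, had implied means of 1869 in KO and 1952 in WT and a log2 value of -0.06 ± 0.21 (adjusted p = 0.931) per the authors' deposited table. Its 95% interval, -0.47 to 0.34, leaves out a fall as large as that fitted for Srebf2 but overlaps the Srebf2 interval, -0.99 to -0.33. The difference between Cyp51 and Srebf2 was not tested. Squalene synthase Fdft1, which holds a branch point toward sterols, and Msmo1, the C4 demethylating oxidase, had slightly positive values of 0.05 ± 0.32 (0.967) and 0.04 ± 0.33 (0.973) per the authors' deposited table. Fdft1 overlaps the abundant gene Ctsb, and Cyp51 overlaps Akap9, both on the opposite strand, and the labels do not say that the libraries kept strand. The same limit holds outside the sterol steps for Srebf1 with Rai1 (baseMean 497), Ggps1 with Arid4b (1480) and Npc1 with Rmc1 (743). Other opposite-strand overlaps of members were with genes of a baseMean of at most 65.2, per the authors' deposited table. Squalene epoxidase Sqle stood at -0.29 ± 0.32 (0.744), Nsdhl, which acts with Msmo1 in C4 demethylation, at -0.20 ± 0.37 (0.859) and Hsd17b7, the ketoreductase of that step, at -0.27 ± 0.44 (0.841) per the authors' deposited table. The isomerase Ebp and the 7-dehydrocholesterol reductase Dhcr7 had values of -0.28 ± 0.26 (0.685) and -0.29 ± 0.37 (0.789) per the authors' deposited table. Against abundant genes 7 of the 11 stayed negative with a median of -0.03, and against the running median 8 with a median of -0.16.

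None of the 6 uptake and trafficking genes passed the adjusted or the unadjusted test of the deposited values in either direction. Mylip, which encodes the ubiquitin ligase IDOL that removes lipoprotein receptors, had implied means of 572 in KO and 473 in WT and a log2 value of 0.27 ± 0.25 (adjusted p = 0.684) per the authors' deposited table. Npc1, the lysosomal membrane protein that exports cholesterol, stood at 0.25 ± 0.29 (0.759) with implied means of 509 in KO and 428 in WT, and its soluble partner Npc2 at -0.15 ± 0.19 (0.770) with 1626 in KO and 1809 in WT, per the authors' deposited table. The pair thus had opposite signs, each less than 1 SE from 0. Stard4, a carrier of cholesterol between membranes, stood at -0.15 ± 0.24 (0.839) and Abcg1, a liver X receptor target that exports sterols, at -0.03 ± 0.25 (0.972) per the authors' deposited table. Soat1, which esterifies cholesterol for storage, had implied means of 3316 in KO and 4118 in WT, with a log2 value of -0.31 ± 0.17 (0.408) per the authors' deposited table. The median of the 6 was -0.09 with 4 negative, and it turned to 0.16 against abundant genes and 0.14 against the running median, with 1 negative in each. Differences between the role groups were not tested.

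**Figure D2:**
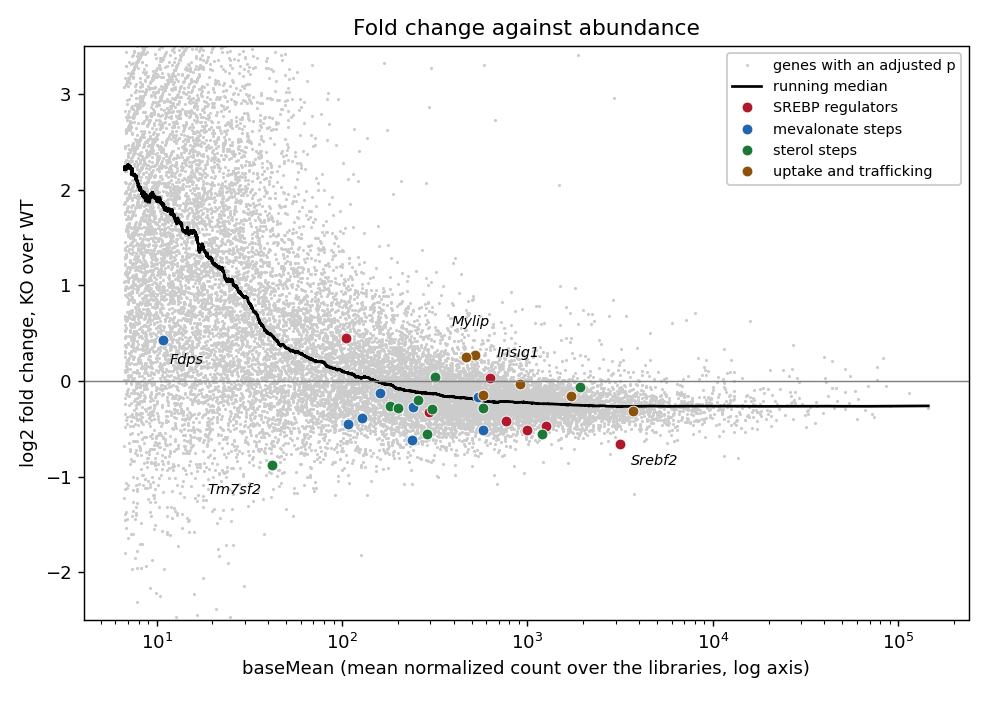
Log2 fold change (y axis, KO over WT) against baseMean (x axis, log scale) for all 19193 tested genes in grey, their running median along baseMean as a black line, and the 32 members coloured by role. The y axis runs from -2.5 to 3.5 and leaves out 1303 genes. Scarce genes lie mostly above 0 and abundant genes mostly below it, and the SREBP regulators and synthesis genes lie mostly under the line, uptake genes mostly over it.

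The set has to be read beside a shift that follows abundance in the whole table. The median log2 value of tested genes was 1.10 under a baseMean of 100, -0.05 from 100 to 300, -0.20 from 300 to 1000 and -0.25 from 1000 to 4000. The corresponding shares of negative genes were 18.2%, 55.9%, 81.7% and 93.5%. With the running median taken away, 21 of the 32 members were negative with a median of -0.16, made up of 5 of 7 regulators, 7 of 8 mevalonate genes, 8 of 11 sterol genes and 1 of 6 uptake genes. At that scale 1 member, Srebf2, was lower at an unadjusted p under 0.05 and 0 were higher, against 0.953% and 3.87% of tested genes. Of the 8710 genes with a baseMean of 100 to 4000, 54 were lower and 161 higher. None of the 32 passed adjustment, which 0.0104% of tested genes did as lower and 0.109% as higher. Relative to abundant genes, whose median was -0.25, the members' median was -0.03 with 18 negative. By the same measure 4573 of all 19193 tested genes were negative, with a median of 0.33. Among the 8710 with a baseMean of 100 to 4000, 3209 were negative, with a median of 0.07. Srebf2 was lower and Mylip higher at an unadjusted p under 0.05 on that scale, where 0.203% of tested genes were lower and 13.3% higher. Of the 8710 genes with a baseMean of 100 to 4000, 26 were lower and 322 higher by that rule. None of the 32 passed adjustment there, against 0.0104% of tested genes as lower and 1.17% as higher. The split of calls over all genes also depends on the scale, with 19 lower and 87 higher as deposited, 2 and 225 against abundant genes, and 2 and 21 against the running median.

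The table could show only large changes for most members. A gene needed a statistic of 3.64 standard errors to pass, which at the members' median SE of 0.30 means a log2 change of 1.11, or 2.15-fold. The smallest change that could pass was 0.61 for Srebf2, and the largest was 5.37 for Fdps. For 28 of the 32 genes the 95% interval includes 0. These genes were not shown to be unchanged, and for example a level in KO as low as 47.7% of WT for Hmgcs1, or 38.7% for Mvd, lies within the interval.

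Levels were compared per kilobase of annotated exon, over all libraries. The upper end of the 32 held Srebf2 at 438 normalized counts per kb, Cyp51 at 433, Soat1 at 380, Npc2 at 316, Ebp at 249, Sc5d at 248 and Insig1 at 204. Srebf1, the paralog of Srebf2, was at 177. The spread over samples is not known, so neighbours such as Srebf2 and Cyp51, or Ebp and Sc5d, were not ordered. At the low end stood Fdps at 2.59, Tm7sf2 at 9.52 and Mbtps2 at 10.5, the 3 members under the median of 25.7 per kb over tested genes. For the C14 reduction Tm7sf2 has a functional partner, Lbr, named here after its value was seen, whose level was 691 per kb and whose log2 value was -0.30 ± 0.18 (adjusted p = 0.474) per the authors' deposited table.

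**Figure D3:**
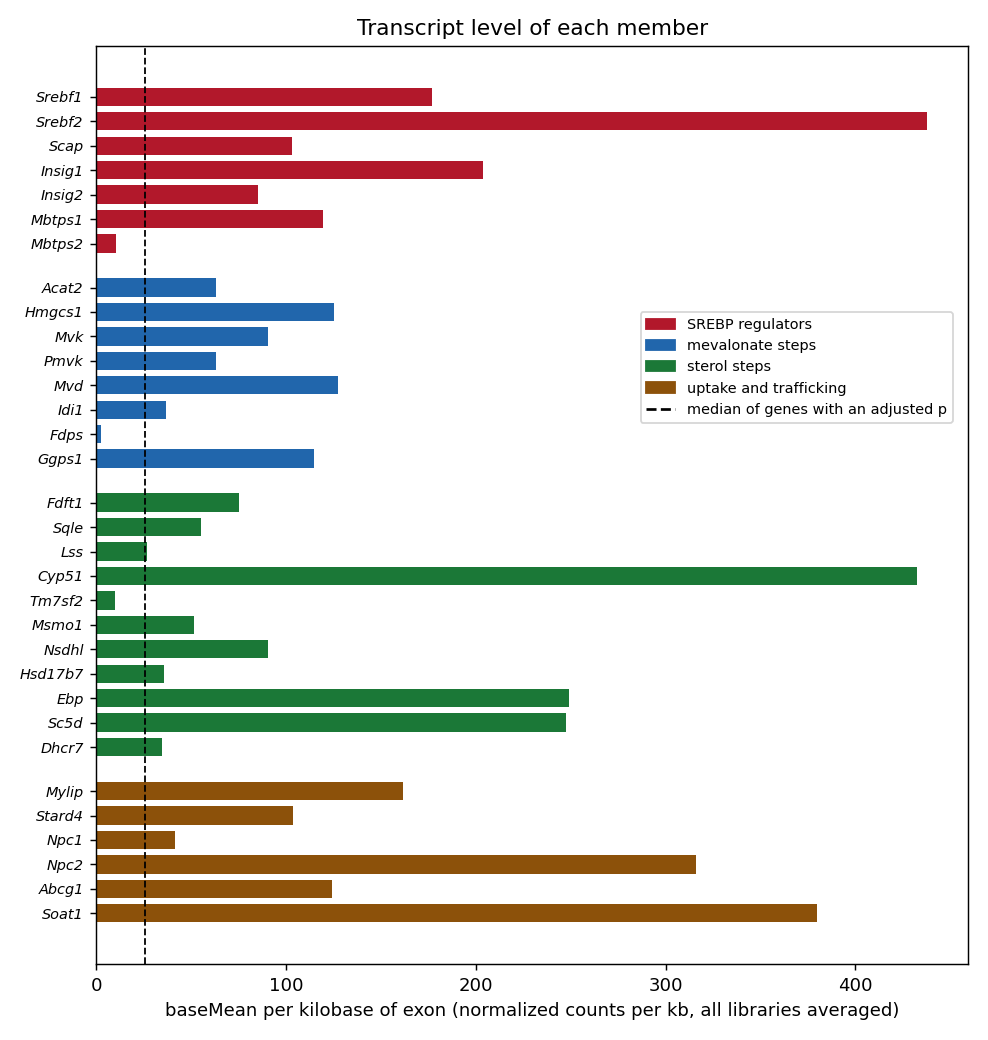
baseMean per kilobase of exon (x axis, normalized counts per kb over all libraries) for each of the 32 genes, grouped and coloured by role. The dashed line is the median of tested genes, 25.7. Srebf2, Cyp51, Soat1 and Npc2 reach above 300 per kb, and Fdps, Tm7sf2 and Mbtps2 stay under the line.

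Promoter sequence played no part in the choice of genes, and it is described here with no test. RefSeq windows of 250 bases before the start were matched for 26 of the 32 genes, 34 windows in all. Of the 26 genes, 22 had a CCAAT box in at least 1 window, or 84.6%, against 37.5% of all 26994 genes with a window and 40.2% of those with a baseMean of 100 to 4000. These were 4 of 7 regulators (all but Scap, Mbtps1 and Mbtps2), 6 of 7 mevalonate genes (all but Acat2), 9 of 9 sterol genes and 3 of 3 uptake genes. The Sp1 box was as common in the set, in 22 of 26 genes, but also in 66.0% of genes with a baseMean of 100 to 4000. An E-box was found in 5 of 26 genes, or 19.2%, against 10.5%. The sterol element TCACNCCAC was found in 1 gene, Hmgcs1, or 3.85%, against 1.10%. Both strands were searched, no motif was required to stand apart from another, and genes with several starts had more chances of a match. A match is a run of letters and not evidence of binding, and the absence of one in a window says nothing about the factor.

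**Figure D4:**
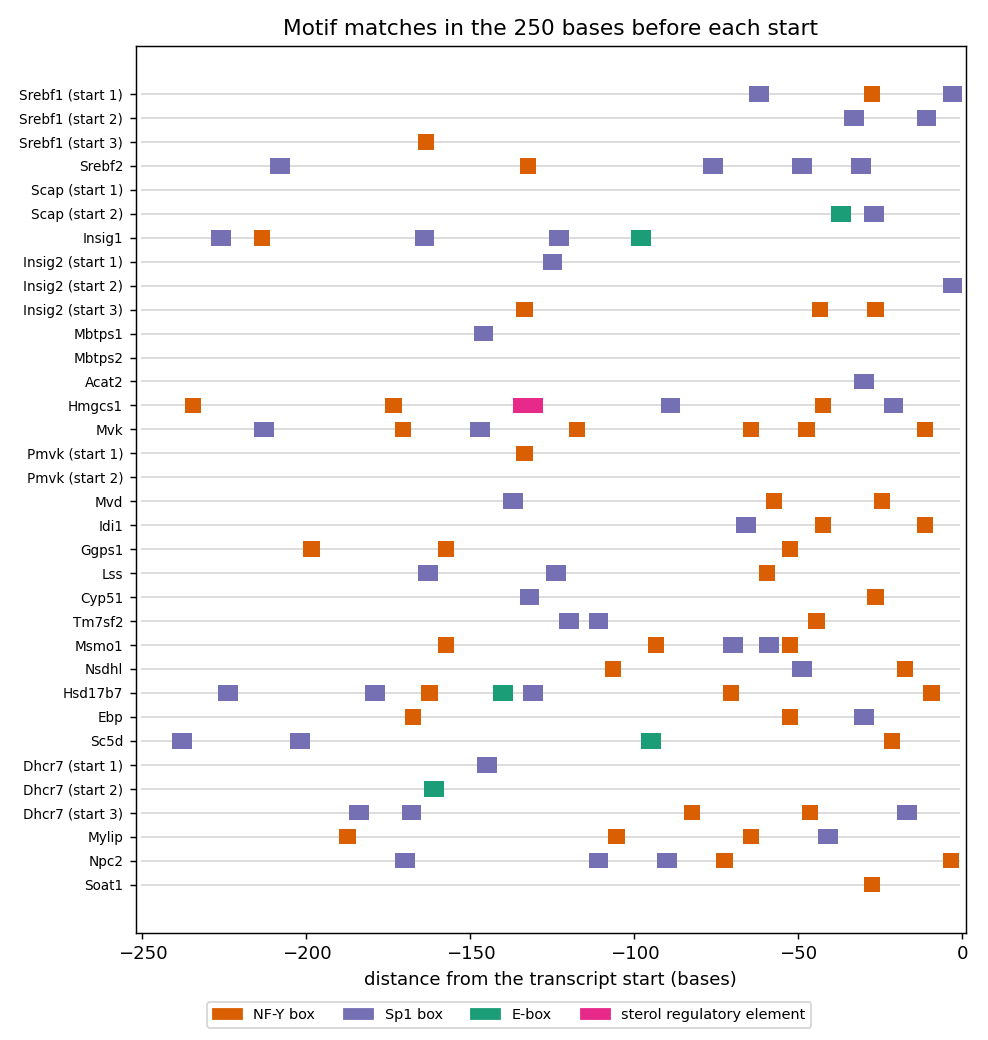
Positions of motif matches (coloured boxes; x axis, bases before the transcript start) in the 34 windows of 26 members, with genes having several starts shown once per start. CCAAT boxes of NF-Y are spread over the 250 bases in mevalonate and sterol genes, and the 1 sterol regulatory element is that of Hmgcs1.

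Other genes around the pathway, listed by function, gave no call. Of 61 listed, 58 were tested, and 0 were lower and 0 higher at an adjusted p under 0.05, while 1 was lower and 3 higher at an unadjusted p under 0.05. Across all tested genes 0.099% were lower and 0.453% higher with adjustment, and 3.95% and 9.62% without. The median of the 58 was -0.10, with 38 negative, or 65.5%. That share was 46.0% over all tested genes and 75.2% over those with a baseMean of 100 to 4000. All 7 genes of sterol sensing and degradation partners were negative with a median of -0.13, but 1 of the 7 lay below the running median. Of 13 prenylation and non-sterol genes 10 were negative (median -0.11), of 7 other synthesis enzymes 6 (-0.28), of 9 liver X receptor and oxysterol genes 4 (0.09), and of 22 uptake, efflux and membrane transfer genes 11 (0.01). Among those with a baseMean of at least 1000, the lowest were Gramd1a, which carries cholesterol from the plasma membrane to the endoplasmic reticulum, at -0.56 ± 0.17 (adjusted p = 0.0736), and Zmpste24, a protease for prenylated proteins, at -0.34 ± 0.21 (0.477), per the authors' deposited table. The highest were Gpr183, the oxysterol receptor, at -0.04 ± 0.17 (0.949) and Pgrmc1, a haem-binding partner of cytochrome P450 enzymes, at -0.10 ± 0.19 (0.870), per the authors' deposited table.

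Markers of ILC2s and of most other lung cells lay on different sides of 0. All 12 ILC2 markers were negative with a median of -0.33, 0 passed the adjusted test, and 8 lay below the running median. Their median baseMean was 12783, and negative values prevail at high abundance. From 1000 normalized counts upward, 92.9% of genes in the test fell below 0, and their median was -0.25. A negative sign alone thus does not set the ILC2 markers apart from other abundant genes. The summed implied level of the 12 ILC2 markers was 159816 in KO and 192033 in WT. The most abundant, Rora, stood at -0.16 ± 0.14 (adjusted p = 0.660) per the authors' deposited table. Markers of lung epithelium were positive in 8 of 9 cases (summed 14042 in KO and 8075 in WT). Those of fibroblasts were positive in 8 of 8 (9165 in KO and 5352 in WT). Endothelium followed with 7 of 7 (3103 in KO and 2290 in WT). For macrophages and monocytes it was 8 of 9 (12638 in KO and 11811 in WT). Below the running median lay 0 of 9, 0 of 8, 0 of 7 and 3 of 9 of these markers, in that order. Over tested genes the negative share was 18.2% under a baseMean of 100 and 55.9% from 100 to 300. T cell markers were negative in 7 of 9 cases (5624 in KO and 7788 in WT), and B and plasma cell markers positive in 5 of 7 (5568 in KO and 5263 in WT). Most of the T cell sum came from Trbc1, Trbc2 and Cd3g, with a baseMean of 2938, 2525 and 963. Cd3e, Cd3d, Cd5 and Cd4 were scarce, with a baseMean of 51.8, 18.1, 14.8 and 13.8. Their log2 values were -0.44, -0.02, 1.03 and 1.25 (adjusted p = 0.840, 0.997, 0.778 and 0.747), per the authors' deposited table. Whether the number of T cells differed was not tested. Sftpc (0.60 ± 1.44, 0.897), Col3a1 (0.70 ± 1.22, 0.849), Pecam1 (0.26 ± 0.23, 0.654), Lyz2 (0.14 ± 0.20, 0.802), Trbc1 (-0.46 ± 0.18, 0.192) and Ighm (-0.51 ± 0.18, 0.141) were the most abundant gene of each of these lists, with adjusted p as the last value, per the authors' deposited table. One marker gene passed, Cd3g of the T cell list (-0.96 ± 0.24, adjusted p = 0.0292), per the authors' deposited table. No listed marker was at 0, and ranges over libraries were not analysed here. Most cholesterol genes are used by all of these cells, and the part of other cells in the values of the 32 genes was not tested. In sorted bulk samples, fewer cells of a type and less RNA per cell cannot be told apart.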

How the data were processed

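RNA of sorted lung ILC2s was profiled in 2 KO and 2 WT samples, grouped by the titles in the labels. Per the labels' protocols, RNA came from Trizol extraction, cDNA from the SMART-Seq HT kit and libraries from a TruePrep kit. The submitters' processing notes name HISAT2, Cufflinks and mm10 but no roles, and the sources used here give neither the counter nor the annotation.

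The authors deposited 1 table of their comparison. Per the file headers it holds baseMean, a signal (mean normalized count), a log2 fold change and its standard error, a score (the test statistic), and the raw and adjusted p-value, under the headings of DESeq2. Its 8 further columns of values per library carry codes that match no sample label and were not used, although the first lines of the table were displayed once. Depth and spread per sample are therefore unknown, and the planned models on library values were replaced by the authors' test. An adjusted p is given for 19193 genes, those from a baseMean of 6.71 upward.

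Signs were turned to KO over WT. Intervals are 1.96 standard errors on each side. The rescalings subtract the median of abundant genes (baseMean from 1000 upward) or a running median along baseMean rank, with p from the deposited error and Benjamini-Hochberg adjustment. Positions and exon lengths are from GENCODE M21 and promoters and microRNAs from RefSeq GRCm38.p6, the build of mm10. Python 3.11.15, pandas 2.3.3 and SciPy 1.17.1 were used. Named genes were all 32 members, Nrp1, the 2 highest and 2 lowest abundant genes of the other pathway lists, and the most abundant marker of each list. Lbr, Cd3g, Cd3d, Cd3e, Cd4, Cd5, Trbc2, Gm3571, Mir33 and the genes overlapping a member were named outside this rule, after their values were seen. Members, lists and tests were chosen with earlier results of these data known.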

Additional observations from a re-analysis of the deposited data

How the results depend on the processing

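The 1 lower member, Srebf2, was also called with a baseMean of at least 50. An adjusted p under 0.1 is a looser cut on the same values, so it keeps Srebf2 by definition, and it added no other member. The number of lower members was 0 with no filter, 0 centred on abundant genes, 0 minus the running median and 4 at an unadjusted p under 0.05. No member was higher in any of these settings. Centred and at an unadjusted p, a combination outside these counts, Mylip was higher. Of the other pathway genes, 1 was lower at an adjusted p under 0.1, and 1 was lower and 3 higher at an unadjusted p under 0.05. At that unadjusted cut 3.95% of all tested genes were lower and 9.62% higher. The shares of all genes called at an adjusted p under 0.1, with no filter or from a baseMean of 50 are not given here. The counts at those settings thus cannot be set against all genes. Centring moved the median of the regulators to -0.17 and that of the uptake genes to 0.16, and left 1 negative uptake gene, as did the running median. By construction centring adds 0.25 to each log2 value. These members turned positive when centred: Acat2 (0.12), Ggps1 (0.0826), Cyp51 (0.19), Nsdhl (0.0505), Stard4 (0.101), Npc2 (0.0977) and Abcg1 (0.22). Minus the running median, Ggps1 (0.0378), Cyp51 (0.19), Stard4 (0.0594), Npc2 (0.0940) and Abcg1 (0.19) turned positive and Fdps turned negative (-1.40). None of these 8 genes was called in any of these settings with adjustment. Over the 32 members and Nrp1, direction and call were kept in 114 comparisons, the call was lost in 3, all of Srebf2, and the direction turned in 13. The filter settings leave log2 values as they are, so a direction could turn only in the rescalings. Direction and call were kept in 25 genes when centred, where 7 turned, and in 26 minus the running median, where 6 turned. Nrp1 kept direction and call throughout. No paired analysis was possible because the columns of values per library match no sample. For the same reason other normalizations and leaving out each replicate were not run.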
